A study of Homo sapiens with 9 samples.

Results

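The 10 genes described here, ATF4, DDIT3, ASNS, TRIB3, CHAC1, ATF3, SESN2, PPP1R15A, HSPA5 and XBP1, belong to the integrated stress response and the unfolded protein response. They were chosen by name from the 58735 genes of the deposited count table, and all 10 passed the filter on low counts in each comparison. Their RNA was measured in A549, an established human lung adenocarcinoma cell line, in 9 RNA-seq libraries. All cells were transfected with a plasmid. The PC3 group received the control plasmid (PC3 is here a plasmid name, not the prostate cancer line), the L996 group a plasmid that overexpresses the long noncoding RNA LINC00996, and the RP11 group a plasmid that overexpresses the long noncoding RNA AP001189.3. Each group had 3 libraries. In the labels each control library has a plasmid name that ends in its own number after PC3, read here as replicates of 1 control plasmid. Whether they are separate plasmids is not stated, and the SD of the control group rests on this reading. Nothing in the labels says that the libraries of a group came from separate transfections, so the p-values measure only the spread between these libraries, which may be technical. The work rests on 1 cell line, the lncRNA was delivered as a plasmid in every treated group, and the time between transfection and harvest was not given in the sources used here.

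When eIF2α is phosphorylated by a stress kinase, translation in general falls while translation of ATF4 rises, and the ATF4 protein then switches on genes for amino acid supply, redox balance and, under lasting stress, cell death. Unfolded protein in the endoplasmic reticulum (ER) engages 3 sensors, the eIF2α kinase PERK (EIF2AK3), the endonuclease IRE1 (ERN1), which splices XBP1 mRNA, and ATF6, which is cut by proteases before it enters the nucleus. Gene counts measure neither the translation of ATF4 nor the splicing of XBP1, so the values here are total mRNA of each gene.

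The totals ranged from 15272450 to 18125447 counts per library. The targeted lncRNAs matched the labels. LINC00996 was at 287, 278 and 322 CPM (counts scaled to a common library size) in the L996 libraries and at 0.230 to 0.528 CPM in the other 6, and AP001189.3 was at 98.2, 126 and 143 CPM in the RP11 libraries and had between 0 and 2 counts in each of the others. L996 replicate 1 stood apart from its group. Its level relative to the other libraries rose with the GC content of a gene (Spearman rho across genes 0.428, against -0.241 and -0.421 in L996 replicates 2 and 3), and the same rho was 0.204 to 0.354 in the RP11 group and -0.277 to -0.00244 in the control group. GC content therefore moved with the RP11 group, and values with an offset for GC content, or without L996 replicate 1, are given beside the counts and calls they move most. Of the marker lists, the summed level of 6 epithelial markers was 8439 to 8510 CPM in the control group, 8344 to 11160 in L996 and 9109 to 9274 in RP11. With LINC00996, 2 of the 6 were called lower and 0 higher, where 22.3% of all genes were called. CDH1 fell from 317 to 171 CPM and KRT19 from 296 to 225 CPM, while the means of KRT8, KRT18 and EPCAM were higher than in control. The counts were 2 higher and 2 lower with the GC content offset, where 37.4% of all genes were called. Without L996 replicate 1 they were 1 and 3, where 33.2% were. The part of these markers in the L996 results was not tested. The sum of 6 markers of A549 with its KEAP1 mutation was 8254 to 8364 CPM in the control group, 8553 to 8977 in RP11 and 12298 to 12998 in L996. It was thus higher in each L996 library, with 4 of the 6 genes called higher, and its part in the L996 results was not tested. The sum of 5 leukocyte markers was 14.1 to 21.3 CPM over all libraries, with PTPRC at 0 in the control group and CD3E at 0 in L996 and RP11. Most of it was CD14 (group means 10.4 to 12.4 CPM) and ITGAM (5.31 to 7.35 CPM). The sum of 5 endothelial and fibroblast markers was 31.9 to 35.1, 18.5 to 20.6 and 27.1 to 28.8 CPM in the control, L996 and RP11 groups, with COL1A2 at 0 in RP11. With LINC00996, 2 of the 3 tested (PECAM1 and COL1A1) were called lower, where 22.3% of all genes were called. With AP001189.3, 1 of the 3 (PECAM1) was called lower, where 19.8% were.

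All 10 genes had a RefSeq promoter window (GRCh38.p14), and the 250 bases before each start were searched on both strands for 5 stress response motifs. The C/EBP-ATF response element, bound by ATF4 with a C/EBP partner, was searched as TGATGNAAN and was present before ASNS, ATF3 and CHAC1, and in 3.13% of 35116 promoters. The ER stress response element, bound by ATF6 with NF-Y, was searched as CCAAT and CCACG with 9 bases between them and was present before HSPA5 and XBP1, and in 0.074% of promoters. The cyclic AMP response element TGACGTCA was present before PPP1R15A and in 1.65% of promoters. A further form of the ER stress element (ATTGG and CCACG with 1 base between them) and TGACGTGG, the unfolded protein response element, which shares its first letters with the cyclic AMP element, were in none of the 10 windows and in 0.0513% and 0.612% of promoters. The stretches show where the letters matched, and whether a match is the known element of its gene was not tested. No test compares genes that hold the same letters. Capitals mark the fixed letters of the motif, which lies on the opposite strand in CHAC1. In GENCODE 29, which draws some transcripts from a start farther upstream, the stretches of ASNS and CHAC1 lie in a first exon, in the 5′ UTR, and the last base of the XBP1 stretch is the first base of its 5′ UTR. The other stretches lie outside the gene, before its start. A match is a description of the letters, not of a bound site.
ASNS, chr7:97872457-97872486, minus strand: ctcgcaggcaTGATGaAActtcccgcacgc
ATF3, chr1:212565206-212565235, plus strand: aaggtcaggaTGATGgAAggctgtcatatt
CHAC1, chr15:40953251-40953280, plus strand: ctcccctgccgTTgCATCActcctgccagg
HSPA5, chr9:125241385-125241414, minus strand: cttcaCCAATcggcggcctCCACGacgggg
XBP1, chr22:28800597-28800626, minus strand: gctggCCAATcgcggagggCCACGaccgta
PPP1R15A, chr19:48872352-48872381, plus strand: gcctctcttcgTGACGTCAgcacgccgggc

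The genes covered a wide range of levels in control cells. Per length, HSPA5, the major chaperone of the ER lumen (also called BiP), was highest at 259 ± 8.79 FPKM (SD, n = 3). ATF4 followed at 80.5 ± 5.21 FPKM, then XBP1 at 47.4 ± 3.71, TRIB3 at 38.5 ± 1.00 and PPP1R15A at 27.4 ± 5.88 FPKM. DDIT3 was at 12.8 ± 0.930 FPKM, CHAC1 at 9.75 ± 1.23, ATF3 at 7.62 ± 0.542, SESN2 at 5.89 ± 0.778 and ASNS at 0.431 ± 0.134 FPKM. No gene's range over the 3 control libraries overlapped that of its neighbour in this order. In L996 the order differed from control in that the mean of PPP1R15A stood above that of TRIB3. Their ranges overlapped (24.1 to 34.2 and 24.1 to 27.2 FPKM), and in L996 replicate 2 PPP1R15A was below TRIB3. In RP11 PPP1R15A stood above XBP1, and ATF3 stood in the sixth place and not the eighth, above CHAC1 and DDIT3, which themselves changed places at 12.9 and 12.7 FPKM with overlapping ranges. Exons were shared with other genes in DDIT3 (39.6% of its 1307 exon bases, of which 27.2% with MARS on the opposite strand) and ASNS (44.6% of 4455 bases, all with AC079781.5). Whether counting used strand or kept reads that overlap several genes was not given, so the counts of DDIT3 and ASNS are uncertain. The other 8 genes shared no exon bases.

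**Figure D1:**
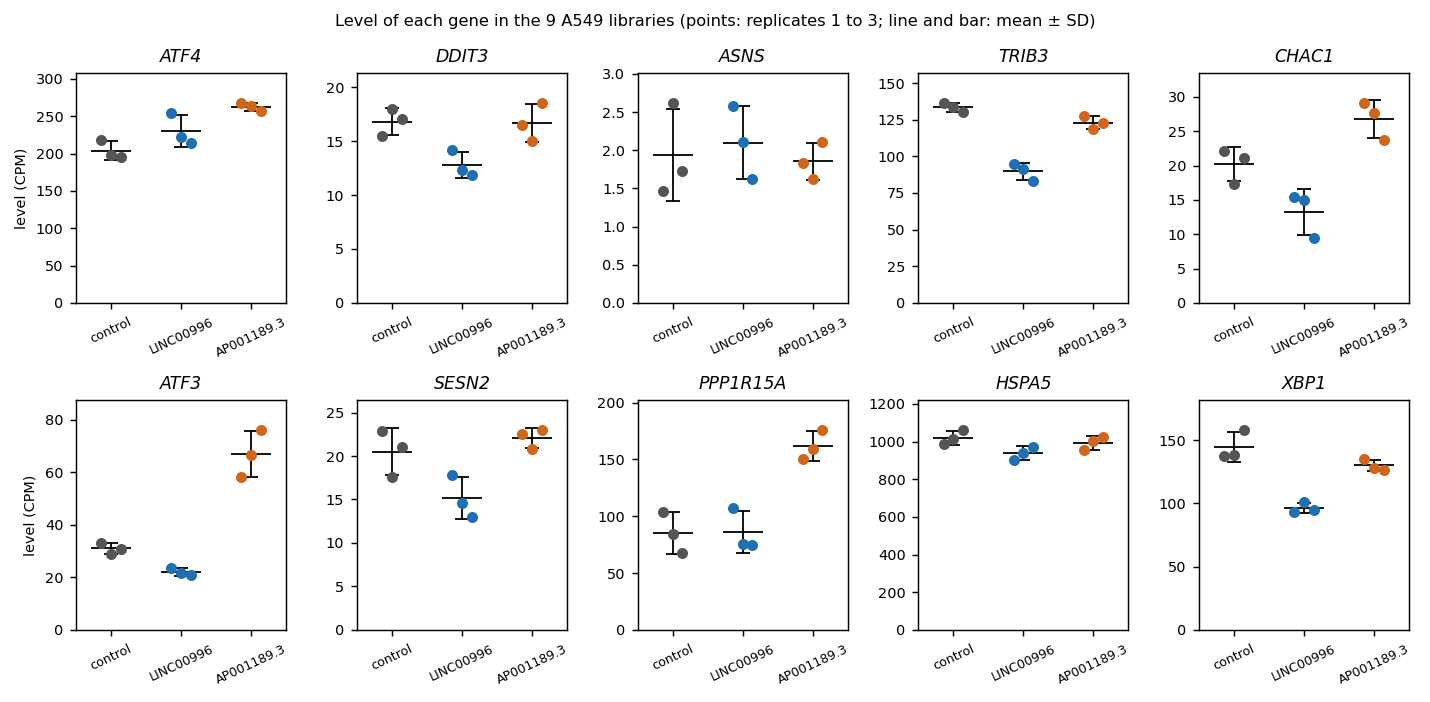
Level of each of the 10 genes (CPM, linear axis from 0) in the control, LINC00996 and AP001189.3 libraries, with points for replicates 1 to 3 in that order from left to right, a line for the mean and a bar for the SD. ATF3 lay between 58.2 and 76.0 CPM in the AP001189.3 libraries and at 33.2 CPM or below in all others, and TRIB3 and XBP1 were lowest in the 3 LINC00996 libraries.

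With LINC00996, 5 of the 10 genes fell and none rose, though ATF4 was called higher with the GC content offset. XBP1, TRIB3, ATF3, CHAC1 and DDIT3 were called lower (edgeR's quasi-likelihood test, p adjusted over all genes and below 0.05), and the background was 22.3% of 16097 genes called, with 11.6% called lower and 10.7% called higher. By library size alone the split of all calls was 2006 higher and 1669 lower, against 1722 and 1866 by TMM. In 6 genes (these 5 and HSPA5) every L996 library was below every control library, which was so for 20.5% of all genes tested. The median log2 fold change of the 10 genes was -0.42, and that of all genes tested was 0.01. ATF4 mRNA was not called lower. Leaving out a library moved the count to 2 (without control replicate 1) or 3 (without control replicate 3 or L996 replicate 3). It was 4 without control replicate 2 or L996 replicate 2, and 6 without L996 replicate 1. In each of these fits the calls were all lower. With the GC content offset 6 were called lower and 1 higher, where 37.4% of all genes were called.

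TRIB3 (GRCh38 chr20:362835-397559, plus strand), a pseudokinase that is induced by ATF4 and in turn restrains it, was at 136, 134 and 130 CPM in the control libraries and at 94.99, 91.1 and 83.1 CPM in L996. The groups did not overlap, which in either direction was so for 40.5% of all genes tested. TRIB3 changed by -0.57 on the log2 scale (SE 0.0919, adjusted p = 0.00104), and the call held with each of the 6 libraries left out.

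XBP1 (chr22:28794555-28800597, minus strand), the transcription factor whose spliced form drives ER chaperone, secretion and degradation genes, was at 137, 139 and 158 CPM in control and at 93.6, 101 and 95.1 CPM in L996. Every L996 library was below every control library. Its log2 fold change was -0.59 (SE 0.0948, adjusted p = 0.00111), with all 6 fits that left out a library making the call. HSPA5 (chr9:125234853-125241330, minus strand), which carries the same ER stress element before its start, was at 988, 1014 and 1061 CPM in control and at 901, 942 and 972 CPM in L996. These ranges did not overlap either, but the difference was small. The log2 fold change of HSPA5 was -0.13 with a 95% interval of -0.30 to 0.05 (adjusted p = 0.286), so a fall of more than 0.30 lay outside the interval.

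ATF3 (chr1:212565334-212620777, plus strand), a stress-induced repressor and activator of the ATF/CREB family, was at 33.2, 28.9 and 30.9 CPM in control and at 23.7, 21.5 and 20.8 CPM in L996. All 3 L996 libraries were below the lowest control. ATF3 changed by -0.50 on the log2 scale (SE 0.115, adjusted p = 0.00898), and it missed the threshold only without control replicate 1 (adjusted p = 0.0550).

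CHAC1 (chr15:40952962-40956519, plus strand), which degrades glutathione, was at 22.1, 17.4 and 21.2 CPM in control and at 15.4, 15.0 and 9.46 CPM in L996. The L996 libraries were all lower, and replicate 3 was the lowest of them. Its log2 fold change of -0.61 (SE 0.182, adjusted p = 0.0306) lost the call without control replicate 1 (0.122), control replicate 3 (0.111) or L996 replicate 3 (0.0630).

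DDIT3 (chr12:57516588-57521737, minus strand) encodes CHOP, the factor linked to cell death under lasting ER stress. It was at 15.4, 17.9 and 17.0 CPM in control and at 14.1, 12.3 and 11.8 CPM in L996. The groups did not overlap, but the highest L996 library lay close to the lowest control. DDIT3 changed by -0.40 on the log2 scale (SE 0.133, adjusted p = 0.0488), only just past the threshold. The adjusted p was 0.0610 with DESeq2, and 0.0758 to 0.183 in 5 of the 6 fits that left out a library (every one but that without L996 replicate 1).

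SESN2 (chr1:28259527-28282491, plus strand), a stress-induced inhibitor of mTORC1 that senses leucine, was at 22.9, 17.6 and 21.0 CPM in control and at 17.8, 14.6 and 13.0 CPM in L996. The groups overlapped, since L996 replicate 1 lay just above control replicate 2. A log2 fold change of -0.44 (SE 0.152) had an adjusted p of 0.0568. It was called with DESeq2 (0.0495), with no filter on low counts (0.0315), with all 9 libraries in 1 fit (0.0224) and with a gene length offset (0.0344). Without L996 replicate 1 it was -0.58 (adjusted p = 0.000706), and with the GC content offset it was -0.48 (adjusted p = 0.00199).

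ATF4 itself (chr22:39519695-39522685, plus strand) was at 218, 198 and 195 CPM in control and at 254, 223 and 214 CPM in L996. Control replicate 1 reached into the L996 range. Its log2 fold change was 0.17 with a 95% interval of -0.04 to 0.38 (adjusted p = 0.229), with the GC content offset it was 0.15 (adjusted p = 0.0474), and without L996 replicate 1 it was 0.10 (adjusted p = 0.263). PPP1R15A (GADD34, chr19:48872392-48876057, plus strand), which brings a phosphatase to eIF2α and so ends the response, was at 104, 84.5 and 67.5 CPM in control and at 108, 75.3 and 75.1 CPM in L996. Both groups spread widely and lay over each other, with a log2 fold change of 0.01 and an interval of -0.36 to 0.38 (adjusted p = 0.973). ASNS (chr7:97852118-97872542, minus strand), asparagine synthetase, a standard ATF4 target, had only 25 to 47 counts in any of the 9 libraries. Its log2 fold change of 0.12 had an interval of -0.55 to 0.78, so these counts leave both a fall and a rise within that interval possible.

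With AP001189.3, 4 of the 10 genes rose and none fell, though TRIB3 and XBP1 were called lower under other settings. ATF3, PPP1R15A, ATF4 and CHAC1 were called higher, against a background of 19.8% of 16023 genes called, 11.4% called higher and 8.49% called lower. By library size alone the split of all calls was 1608 higher and 1719 lower, against 1819 and 1361 by TMM. The median log2 fold change of the 10 genes was 0.05, and that of all genes tested was -0.00, so the 4 rises stood beside 6 genes that were not called. The control libraries are the same as in the LINC00996 comparison.

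ATF3 had the largest difference of the 10 genes. It was at 58.2, 66.6 and 76.0 CPM in RP11, above every control library (28.9 to 33.2 CPM). The groups did not overlap, as for 35.2% of all genes tested. The log2 fold change was 1.11 (SE 0.0871, adjusted p = 7.26e-09), a 2.16-fold rise. It was 1.12 with the GC content offset, and the call held with each library left out.

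PPP1R15A was at 150, 160 and 176 CPM in RP11, and at 67.5 to 104 CPM in control. All 3 RP11 libraries were well above the highest control. The log2 fold change was 0.93, but the spread of the control libraries gave an SE of 0.178 and an adjusted p of 0.0278. It lost the call without control replicate 2 (0.0871) or without RP11 replicate 1 (0.0760), 2 (0.0727) or 3 (0.0622), while its log2 fold change stayed between 0.86 and 0.98 in those 4 fits. With DESeq2 the adjusted p was 4.06e-05.

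ATF4 was at 267, 264 and 257 CPM in RP11. The libraries agreed closely and lay above the highest control of 218 CPM. The log2 fold change was 0.37 (SE 0.0528, adjusted p = 1.48e-05) and fell to 0.24 with the GC content offset (adjusted p = 0.000408). CHAC1 was at 29.1, 27.6 and 23.8 CPM, each above the highest control of 22.1 CPM. Its log2 fold change of 0.41 (SE 0.103, adjusted p = 0.00559) was lost with the GC content offset (0.20, adjusted p = 0.181). CHAC1 has the highest GC content of the 10 genes at 62.6%. Its adjusted p was 0.0690 without control replicate 2 and 0.166 with all 9 libraries in 1 fit.

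The other genes of the group were not called with AP001189.3. TRIB3 was at 128, 119 and 123 CPM, below the lowest control of 130 CPM by little. Its log2 fold change was -0.11 (adjusted p = 0.143), and with the GC content offset it was called lower at -0.30 (adjusted p = 9.40e-05). XBP1 was at 135, 128 and 127 CPM, also below each control library, with a log2 fold change of -0.15 (adjusted p = 0.0650). With the GC content offset it was -0.07, and it was called lower with library size alone (-0.18, adjusted p = 0.0311), with a gene length offset (-0.22, adjusted p = 0.00940) and without control replicate 1 (-0.19, adjusted p = 0.0230). HSPA5 was at 954, 1001 and 1023 CPM, within the range of the controls apart from replicate 1, and its log2 fold change of -0.04 had a 95% interval of -0.14 to 0.06. DDIT3 was at 16.5, 15.0 and 18.5 CPM, with a log2 fold change of -0.01 and an interval of -0.23 to 0.22. SESN2 was at 22.5, 20.8 and 23.0 CPM with a log2 fold change of 0.11 (interval -0.10 to 0.32). ASNS was at 1.83, 1.63 and 2.11 CPM with a log2 fold change of -0.05 (interval -0.66 to 0.56).

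**Figure D2:**
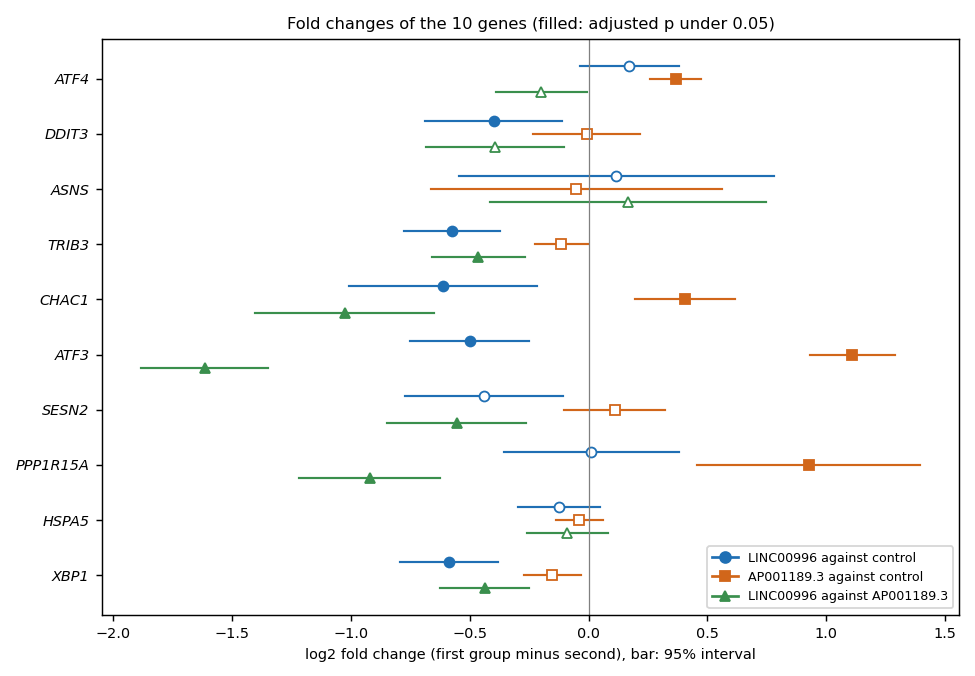
Log2 fold change of each gene (point) with its 95% interval (bar) in the 3 comparisons, filled where the adjusted p was under 0.05. ATF3 was called in all 3 comparisons, at -0.50, 1.11 and -1.62, while HSPA5 and ASNS were called in none.

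The direct test between the lncRNAs placed 6 of the 10 genes lower with LINC00996 than with AP001189.3, and none higher. The background was 21.4% of 16095 genes called, with 12.1% called lower and 9.38% called higher. The split of the called genes depended on the scaling, with 1510 higher and 1942 lower by TMM but 2129 higher and 1667 lower by library size alone, and under both the same count of 6 members was called lower. ATF3 differed most, with a log2 fold change of -1.62 (SE 0.122, adjusted p = 5.18e-06). CHAC1 followed at -1.03 (SE 0.172, adjusted p = 0.00152) and PPP1R15A at -0.92 (SE 0.136, adjusted p = 0.000656). TRIB3 differed by -0.46 (adjusted p = 0.00348) and XBP1 by -0.44 (adjusted p = 0.00392), and these 5 genes were called with each library left out. SESN2 differed by -0.56 (adjusted p = 0.0123) and lost the call without L996 replicate 2 (0.0571), RP11 replicate 1 (0.0631) or RP11 replicate 3 (0.0664). For 8 of the 10 genes every L996 library was below every RP11 library, where 19.6% of all genes tested were lower in this way and 39.4% did not overlap in either direction. The 8 included ATF4 (-0.20, adjusted p = 0.130) and DDIT3 (-0.39, adjusted p = 0.0545), which became calls without L996 replicate 1 (-0.27, adjusted p = 7.28e-05, and -0.47, adjusted p = 0.00268). HSPA5 differed by -0.09, with an interval of -0.26 to 0.08, and ASNS by 0.16, with an interval of -0.42 to 0.75.

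**Figure D3:**
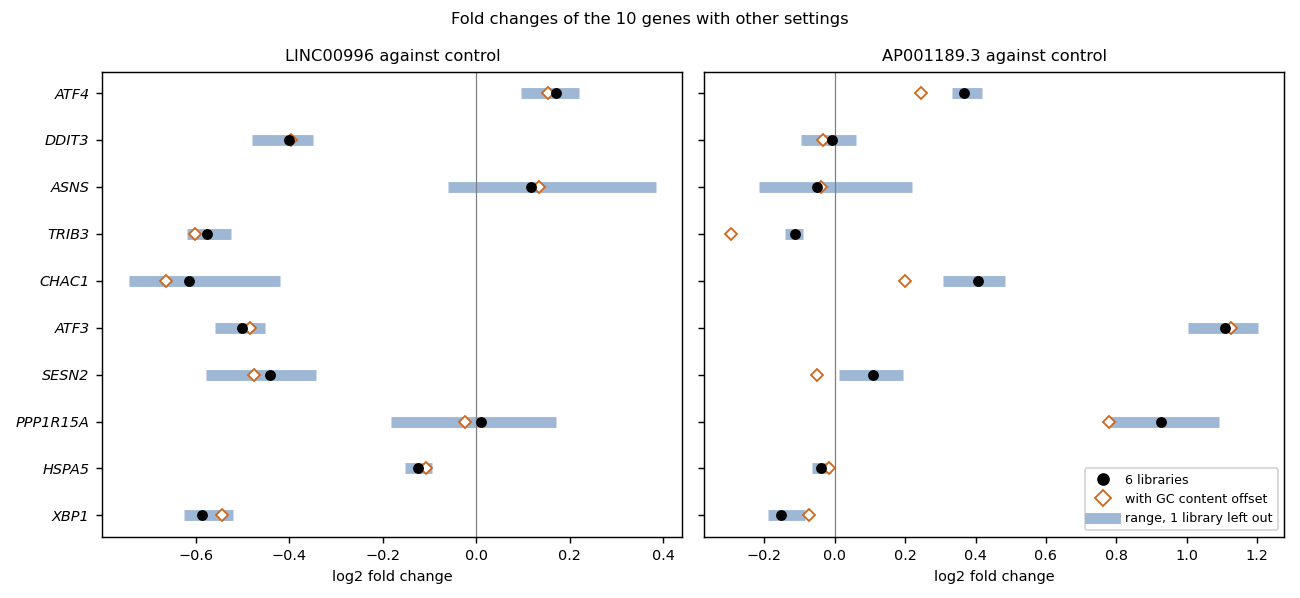
Log2 fold change of each gene against control with all 6 libraries (black point), with an offset for GC content (open diamond) and as a range over the 6 fits that leave out 1 library (blue bar); the horizontal scales of the panels differ. CHAC1 with AP001189.3 moved from 0.41 to 0.20 under the GC content offset and TRIB3 from -0.11 to -0.30, while ATF3 moved from 1.11 to 1.12.

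The wider set of ATF4 targets held calls in both directions with LINC00996. Shares of a list called are given beside those of all genes, which with LINC00996 were 22.3%, or 37.4% with the GC content offset and 33.2% without L996 replicate 1, and with AP001189.3 were 19.8%, or 15.3% with the GC content offset. Of 38 listed genes, 7 of which are among the 10 described above, 37 were tested (FGF21 was too low). With LINC00996, 7 were called higher and 9 lower (43.2%), with a median log2 fold change of -0.14, where 10.7% of all genes were higher and 11.6% lower. The counts were 8 higher and 16 lower with the GC content offset, and 7 and 17 without L996 replicate 1. They were 6 and 4 without control replicate 1, and 5 and 5 without control replicate 2. With AP001189.3, 15 were called higher and none lower (40.5%), with a median of 0.14, where 11.4% of all genes were higher and 8.49% lower, and with the GC content offset 11 were higher and 2 lower. With all 9 libraries in 1 fit only 5 were called, where the whole table dropped from 3180 calls to 437.

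The targets were divided by role after the values were seen, so the counts by role are a description and no test compares the roles. Of 11 enzymes of amino acid and one-carbon synthesis, 5 rose with LINC00996 and none fell (45.5%, where 10.7% of all genes rose). These were SHMT2, mitochondrial serine hydroxymethyltransferase, from 50.3 to 82.8 CPM in the group means (log2 fold change 0.72, SE 0.127, adjusted p = 0.00192), PSAT1 of serine synthesis from 60.3 to 91.1 CPM (0.59, adjusted p = 0.00121), PYCR1 and ALDH18A1 of proline synthesis (0.96 and 0.53) and PHGDH, the first enzyme of serine synthesis (0.49, adjusted p = 0.0457, called in only 1 of the 6 fits that left out a library). With AP001189.3, 7 of the 11 rose (63.6%, where 11.4% of all genes rose, and 5 with the GC content offset), PSAT1 by 0.30, SHMT2 by 0.32 and ALDH18A1 by 0.24 among them. In the direct test SHMT2, PYCR1 and ALDH18A1 were higher with LINC00996 (0.39, 0.60 and 0.29, adjusted p = 0.0405, 0.0402 and 0.0445), calls that held in 2, 3 and 1 of the 6 fits that left out a library. Genes that share ATF4 as a known regulator were called in opposite directions in the same L996 libraries, TRIB3, ATF3 and CHAC1 lower and PSAT1, SHMT2 and PYCR1 higher.

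Of the 12 transcription factors and regulators, 2 rose and 4 fell with LINC00996, where 22.3% of all genes were called. The 4 that fell are TRIB3, ATF3, DDIT3 and CHAC1, already described, although CHAC1 degrades glutathione and is itself an enzyme. The counts were 2 higher and 7 lower with the GC content offset and 1 and 7 without L996 replicate 1. With AP001189.3, 5 rose, ATF3, PPP1R15A and CHAC1 among them, where 19.8% of all genes were called, and 4 were higher and 1 lower with the GC content offset. EIF4EBP1, which binds eIF4E and restrains cap-dependent translation, rose in both comparisons, from 21.3 CPM in control to 46.7 with LINC00996 (log2 fold change 1.13, SE 0.187, adjusted p = 0.00125) and to 35.7 CPM with AP001189.3 (0.75, SE 0.103, adjusted p = 1.27e-05). DDIT4, an inhibitor of mTORC1, also rose in both (0.51 and 0.69), though without L996 replicate 1 the first had an adjusted p of 0.185. Of 8 amino acid transporters, only SLC7A5 was called with LINC00996 (-0.46, adjusted p = 0.00282), a share of 12.5% beside 22.3% of all genes. The counts were 1 higher and 4 lower with the GC content offset, where 37.4% of all genes were called, and 1 and 5 without L996 replicate 1, where 33.2% were. With AP001189.3, 2 of the 8 rose, near the 19.8% of all genes called, and 1 was higher and 1 lower with the GC content offset. SLC6A9, a glycine transporter, rose from 25.1 to 41.2 CPM (0.71, SE 0.0806, adjusted p = 4.57e-07). SLC6A9 was not called with LINC00996 (-0.08). Of the 6 tested genes for secreted proteins, receptors and export, 4 fell with LINC00996, where 11.6% of all genes were lower. STC2, a secreted glycoprotein, fell from 99.5 to 58.2 CPM (-0.78, SE 0.130, adjusted p = 0.00138), and it rose with AP001189.3 to 129 CPM (0.38, adjusted p = 0.00023). In the direct test it differed by -1.16 (adjusted p = 3.28e-05).

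**Figure D4:**
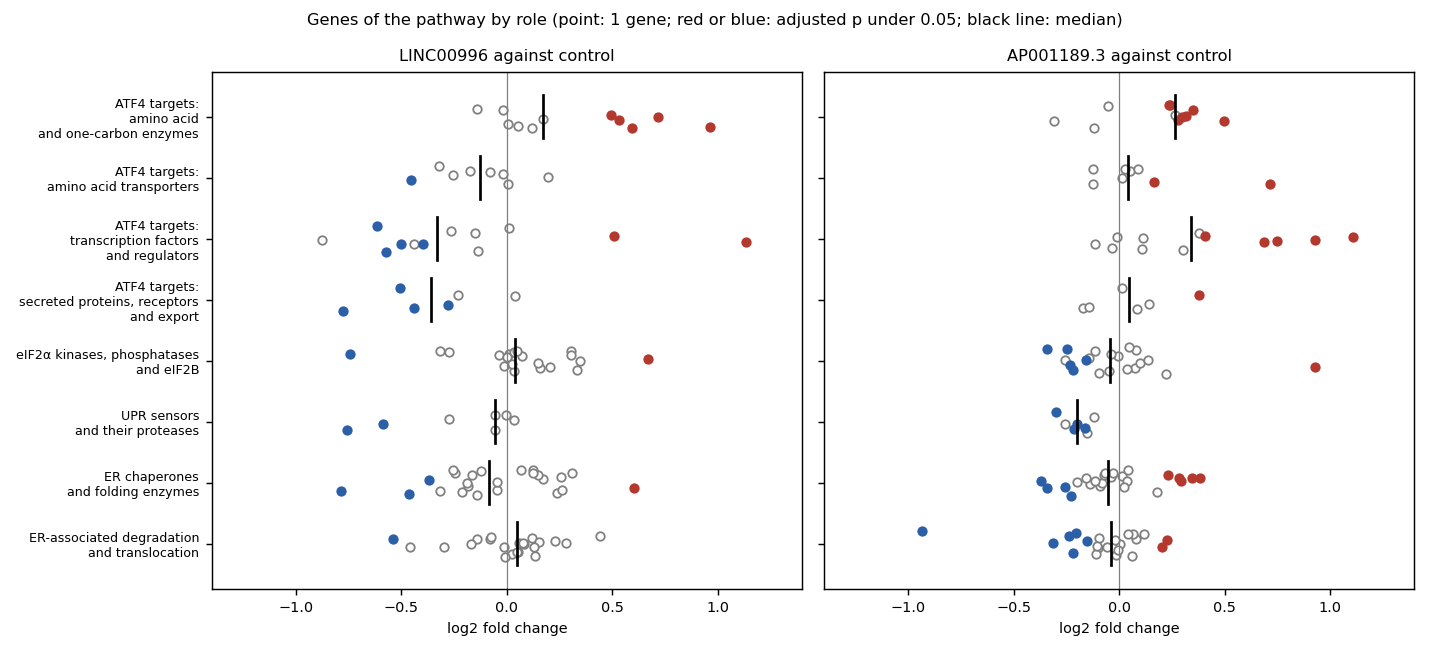
Log2 fold changes of the stress response genes by role against control, with 1 point per gene, colour where the adjusted p was under 0.05 (red higher, blue lower) and a black line at the median. With LINC00996 the 5 called enzymes of amino acid and one-carbon synthesis were all higher and the 4 called secreted, receptor and export genes all lower.

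Upstream of ATF4, the list of eIF2α kinases, phosphatases and eIF2B subunits held 20 genes, PPP1R15A included. With LINC00996, 1 rose and 1 fell (2 of 20, beside 22.3% of all genes called), and the counts were 8 higher and 3 lower with the GC content offset and 5 and 2 without L996 replicate 1. The gene that fell was PPP1R15B, the constitutively expressed paralog of PPP1R15A that likewise brings a phosphatase to eIF2α, from 263 to 158 CPM (log2 fold change -0.74, SE 0.0992, adjusted p = 0.000312). The gene that rose was OMA1, the mitochondrial protease that can engage the kinase HRI (0.67, adjusted p = 0.00623). With AP001189.3, PPP1R15A was the 1 gene that rose, and 5 fell by small amounts, so 6 of 20 were called beside 19.8% of all genes. With the GC content offset 2 were higher and 3 lower. Among the 5 were the kinases HRI (EIF2AK1, -0.23) and GCN2 (EIF2AK4, -0.25), the catalytic subunit PPP1CB (-0.22, not called with the GC content offset, adjusted p = 0.135) and DNAJC3, an inhibitor of PERK (-0.34). PPP1R15B was not called with AP001189.3 (0.08) and was lower with LINC00996 in the direct test (-0.83, adjusted p = 0.000123), as was PPP1R15A.

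The list of ER stress sensors and their proteases held 8 genes, with XBP1 as a member and ERN2 untested. ERN1, the IRE1 sensor that splices XBP1, fell with XBP1 in the L996 libraries, from 159 to 94.3 CPM (log2 fold change -0.76, SE 0.0862, adjusted p = 9.88e-05). ERN1 was also lower with AP001189.3, at 129 CPM (-0.30, SE 0.0533, adjusted p = 0.000217), and it was lower with LINC00996 than with AP001189.3 (-0.46, adjusted p = 0.0023). The LINC00996 comparison called no other sensor gene than ERN1 and XBP1. With AP001189.3, 4 of the 7 were called lower, where 8.49% of all genes were, namely ERN1, MBTPS1 (-0.20), ATF6 (-0.21) and MBTPS2 (-0.16), the last 2 not with the GC content offset (adjusted p = 0.128 and 0.599), with which ATF6B was called instead (-0.26, adjusted p = 0.0139). EIF2AK3, the PERK sensor, had group means of 23.6 CPM in control, 19.6 with LINC00996 (-0.27, adjusted p = 0.108) and 19.8 with AP001189.3 (-0.26, adjusted p = 0.0610), and with LINC00996 it was called lower with the GC content offset (adjusted p = 0.0483).

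Of 24 ER chaperones and folding enzymes, HSPA5 included, 1 rose and 3 fell with LINC00996. This share of 16.7% was below the 22.3% of all genes called in that comparison. That order depended on the setting, since 4 were higher and 7 lower with the GC content offset, where 37.4% of all genes were called, and 4 were higher and 10 lower without L996 replicate 1, where 33.2% were. ERO1A, the oxidase that drives disulphide formation, fell from 511 to 297 CPM (-0.79, SE 0.109, adjusted p = 0.000417), and its partner P4HB, protein disulphide isomerase, fell from 1449 to 1052 CPM (-0.47, adjusted p = 0.00319). DNAJB9, a BiP co-chaperone, fell by 0.37 on the log2 scale, while MANF, a secreted ER stress protein, rose by 0.60. With AP001189.3, 5 rose and 4 fell (37.5%, where 19.8% of all genes were called), ERO1A by -0.26, P4HB by -0.23 and MANF by 0.38, and the counts were 2 and 3 with the GC content offset and 0 and 0 with all 9 libraries in 1 fit. In the direct test 2 of the 24 were called, both lower with LINC00996, where 21.4% of all genes were called, and without L996 replicate 1 there were 3 higher and 9 lower, where 41.6% were.

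Of 23 genes of ER-associated degradation and translocation (DERL3 untested), 22 were tested. With LINC00996, 1 fell (4.55%, where 22.3% of all genes were called), and the counts were 4 higher and 2 lower with the GC content offset and 3 and 2 without L996 replicate 1. With AP001189.3, 2 rose and 6 fell (36.4%, where 19.8% of all genes were called), and 2 and 4 with the GC content offset. SYVN1, the ubiquitin ligase HRD1 and a known target of spliced XBP1, fell from 93.9 to 64.7 CPM with LINC00996 (-0.54, SE 0.0921, adjusted p = 0.00151) and by less with AP001189.3 (-0.24, adjusted p = 0.00635). SEC61G, a subunit of the ER translocon, fell most with AP001189.3, from 86.8 to 45.3 CPM (-0.94, SE 0.0943, adjusted p = 7.06e-06). EDEM3 (-0.31) and SSR1 (-0.22) also fell with AP001189.3.

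Some of the 10 genes are also known p53 targets, SESN2 and ATF3 among them, and 12 further p53 targets were set beside them. With LINC00996, 2 rose and 2 fell. TP53I3 rose from 15.1 to 42.9 CPM (2.83-fold, adjusted p = 2.67e-05) and FDXR by 0.81 on the log2 scale, while FAS changed by -0.66 and PLK3 by -0.45. These 4 of 12 stood beside 22.3% of all genes called, and the counts were 5 higher and 4 lower with the GC content offset and 4 and 4 without L996 replicate 1. With AP001189.3, 3 rose and 2 fell, beside 19.8% of all genes called, with BBC3 at 0.78, TP53I3 at 0.88 and CDKN1A at 0.27, and MDM2, which restrains p53, at -0.17. With the GC content offset 2 were called higher and 0 lower, and CDKN1A (adjusted p = 0.0797) and MDM2 (0.248) were no longer called.

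The genes whose level followed HSPA5 or DDIT3 most closely over the 9 libraries were found among 9850 genes with a mean of at least 10 CPM, by the root mean square difference in log2 CPM minus the control mean. Only genes tested in all 3 comparisons were taken. For HSPA5 they were TMEM43 (0.0253), SH2D4A (0.0403) and ETV5 (0.0422), and for DDIT3 BRD1 (0.0869), P3H1 (0.0892) and RBP5 (0.0893). The 10 genes themselves were left out of this search, so it cannot say whether they follow each other. None of these 6 was on the pathway lists.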

How the data were processed

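A549 cells carrying control, LINC00996 or AP001189.3 plasmids were profiled by the authors by poly-T mRNA sequencing with paired 150 bp reads, with Hisat2 2.0.5 as aligner on GRCh38 and featureCounts 1.5.0-p3 as counter. The strand and overlap settings were not given in the sources used here. The authors deposited raw counts per gene, used for all tests, and deposited FPKM, used only to compare levels between genes. Groups came from the labels, and all 9 count columns were used. Genes passing filterByExpr were tested per comparison on its 6 libraries with edgeR 4.0.16 (R 4.3.3), TMM scaling and the robust quasi-likelihood test, with Benjamini-Hochberg adjustment over all genes tested and calls at 0.05. SE is the log2 fold change over the root of F. CPM use TMM factors over 9 libraries. The procedure was tested on simulated counts. Alternatives included DESeq2 1.42.0. The GC content offset (loess, span 0.75) was added after the data were seen. The members and lists were chosen with earlier results of these data known. Besides the members, up to 4 called genes per list and comparison with the smallest adjusted p were named, and others named were chosen after their values were seen. Libraries held 15272450 to 18125447 counts, and the members 25 (ASNS) to 18454 (HSPA5) counts per library, so the low members carry the larger counting error. Gene coordinates match GENCODE 29, and promoter sequences are from RefSeq GRCh38.p14. The genes most like ATF4 over the libraries are not reported here.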

Additional observations from a re-analysis of the deposited data

How the results depend on the processing

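No direction of a called member reversed under any alternative. Members called with LINC00996 against control were 5, and 7 with the GC content offset (1 higher and 6 lower). They were 3 at an adjusted p under 0.01, and 0 when a log2 fold change of size 1 or more was also asked for. With each library left out they were 2 to 6 (2 without control replicate 1, 3 without control replicate 3 or L996 replicate 3). With AP001189.3 against control they were 4, 1 at that fold change, and 2 to 5 with each library left out (2 without control replicate 2). With LINC00996 against AP001189.3 they were 6, 2 at that fold change, and 5 to 8. ATF4 targets called with LINC00996 against control were 16, 24 with the GC content offset, 10 at 0.01, 1 at the fold change, and 10 to 24 with a library left out. With AP001189.3 against control they were 15, 5 with all 9 libraries in 1 fit, 1 at the fold change, and 10 to 17. Between the lncRNAs they were 16, 26 with the GC content offset, 10 at 0.01, 4 at the fold change, and 10 to 27 (27 without L996 replicate 1, 10 without RP11 replicate 1 or 3). ER chaperones called with LINC00996 against control were 4, 7 with all 9 libraries in 1 fit, 11 with the GC content offset, 0 at the fold change, and 3 to 14. With AP001189.3 against control they were 9, 0 with all 9 libraries in 1 fit, 5 with the GC content offset, 0 at the fold change, and 7 to 11. Between the lncRNAs they were 2, 1 with library size alone, with no filter on low counts or at 0.01, 4 with all 9 libraries, 9 with the GC content offset, 0 at the fold change, and 0 to 12. Stricter thresholds call fewer genes by construction, and otherwise the cause was not tested. Of the single members' fold changes, 120 of the values under alternatives kept their side of the threshold with LINC00996 against control (8 became calls, 12 lost them), 127 with AP001189.3 against control (5 and 8) and 132 between the lncRNAs (5 and 3).

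Deviations from the group means correlated at -0.0194 to 0.148 between libraries of the same replicate number. Between libraries of different numbers they correlated at -0.12 to 0.0451. The rho with GC content was highest in replicate 1 and lowest in replicate 3 of each group. Whether the number marks a shared batch was not tested. With a replicate block, members called were 6 with LINC00996 against control (SESN2 entered, adjusted p = 0.0193), 3 with AP001189.3 against control (PPP1R15A left, adjusted p = 0.119) and 6 between the lncRNAs, and all calls went from 3588 to 4500, 3180 to 3466 and 3452 to 3772. Over all genes, calls with AP001189.3 against control were 437 with all 9 libraries in 1 fit, and without L996 replicate 1 calls with LINC00996 were 5481 against control and 6828 against AP001189.3. ASNS had the fewest counts of the members, 25 to 47 per library. Whether depth or the counting of shared exons set this was not tested.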
